A study of Homo sapiens with 7 samples.

Results

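The imprinted domain of chromosome 11 that holds H19, IGF2, KCNQ1 and CDKN1C was described from 7 loop lists. Its members were the loops with at least 1 anchor midpoint between positions 1900000 and 3000000 of chromosome 11 (hg19), and there were 96 of them among 135475 loops in all. HiChIP was the assay. Neighbouring DNA ends are ligated inside fixed nuclei, an antibody enriches the ligated fragments, and both ends of each are sequenced. All cells were HEC-1-B, a human uterine adenocarcinoma line, or lines made from it. Unmodified (wild-type) cells were profiled with antibodies against ZNF143, CTCF and RAD21, cells lacking ZNF143 (ZNF143KO) with antibodies against CTCF and RAD21, and CTCF-AID cells, treated with auxin (IAA) for 0 h or 24 h, with the antibody against ZNF143. In CTCF-AID cells a degron tag on CTCF leads to its breakdown once auxin is added. Each group was 1 library, so no value below has a replicate check and none carries a p-value. Whether a derived line was 1 clone is not given in the sources used here. The lists hold no expression values, so neither the cell type nor the activity of a gene was checked, and they do not separate the parental alleles.

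In an imprinted domain a gene is active on the chromosome inherited from 1 parent and silent on the other. H19, a long noncoding RNA, is transcribed from the maternal chromosome and IGF2, a fetal growth factor, from the paternal chromosome. CTCF, a zinc-finger protein that stops the loop-extruding cohesin ring, binds the unmethylated maternal control region between them. RAD21 is a subunit of cohesin, and ZNF143 is a zinc-finger protein found at many promoters. Farther along lie KCNQ1, which encodes a potassium channel, the noncoding RNA KCNQ1OT1 that starts inside it and silences neighbouring genes on the paternal chromosome, and CDKN1C, an inhibitor of cyclin-dependent kinases transcribed from the maternal chromosome.

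The domain held 3 ZNF143 loops, 19 CTCF loops and 6 RAD21 loops in wild-type cells. In ZNF143KO cells it held 10 CTCF loops and 9 RAD21 loops, and in CTCF-AID cells 37 ZNF143 loops at 0 h and 12 at 24 h. Its share of a list ran from 0.0250% of the wild-type ZNF143 loops (95% Wilson interval 0.00852 to 0.0736) to 0.0984% of the wild-type CTCF loops (0.0630 to 0.154). Most members had little support. A count of 2, the lowest listed, was held by 12 of 19 wild-type CTCF loops, against 50.2% over that whole list. In the CTCF-AID lists it was held by 26 of 37 loops at 0 h (69.0% over the list) and 9 of 12 at 24 h (58.95%). Wild-type ZNF143 and RAD21 had 1 of 3 (51.7%) and 3 of 6 (48.4%). For ZNF143KO CTCF and RAD21 it was 6 of 10 (62.6%) and 7 of 9 (60.7%). The highest count of any member was 12. Lists rested on 10804 to 40405 loops with total counts of 33460 to 143119, and the sequencing depth behind them is unknown. The member anchors nearest the edges of the interval began at 1903266 and 2995926, and the nearest anchors outside it began at 1864006 and 3011778.

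The anchors of the members fell on 45 sites, 24 of them inside the domain, when anchors within 2 kb of each other were merged. Sites are named here by their middle in Mb. Positions of genes were known only roughly, with H19 near 2017000, IGF2 near 2155000 and CDKN1C near 2905000, because no annotation of hg19 was used. The 2.02 Mb site (chr11:2018697-2024972) began 1.7 kb from the H19 position, on its IGF2 side. The 2.17 Mb site (chr11:2170461-2174049) began 15.5 kb beyond the IGF2 position, and the 2.91 Mb site (chr11:2912604-2914816) began 7.6 kb beyond the CDKN1C position. Other busy sites were at 2.06 Mb (chr11:2056804-2059772), between H19 and IGF2, and at 2.42 Mb (chr11:2419442-2423162), 2.44 Mb (chr11:2439877-2442816) and 2.55 Mb (chr11:2552168-2555032), between IGF2 and CDKN1C. A further one lay at 2.95 Mb (chr11:2950355-2955489), beyond CDKN1C. Of the 24 inside sites, 10 were used in 1 list only, 3 were used in 6 lists and 0 in all 7.

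**Figure D1:**
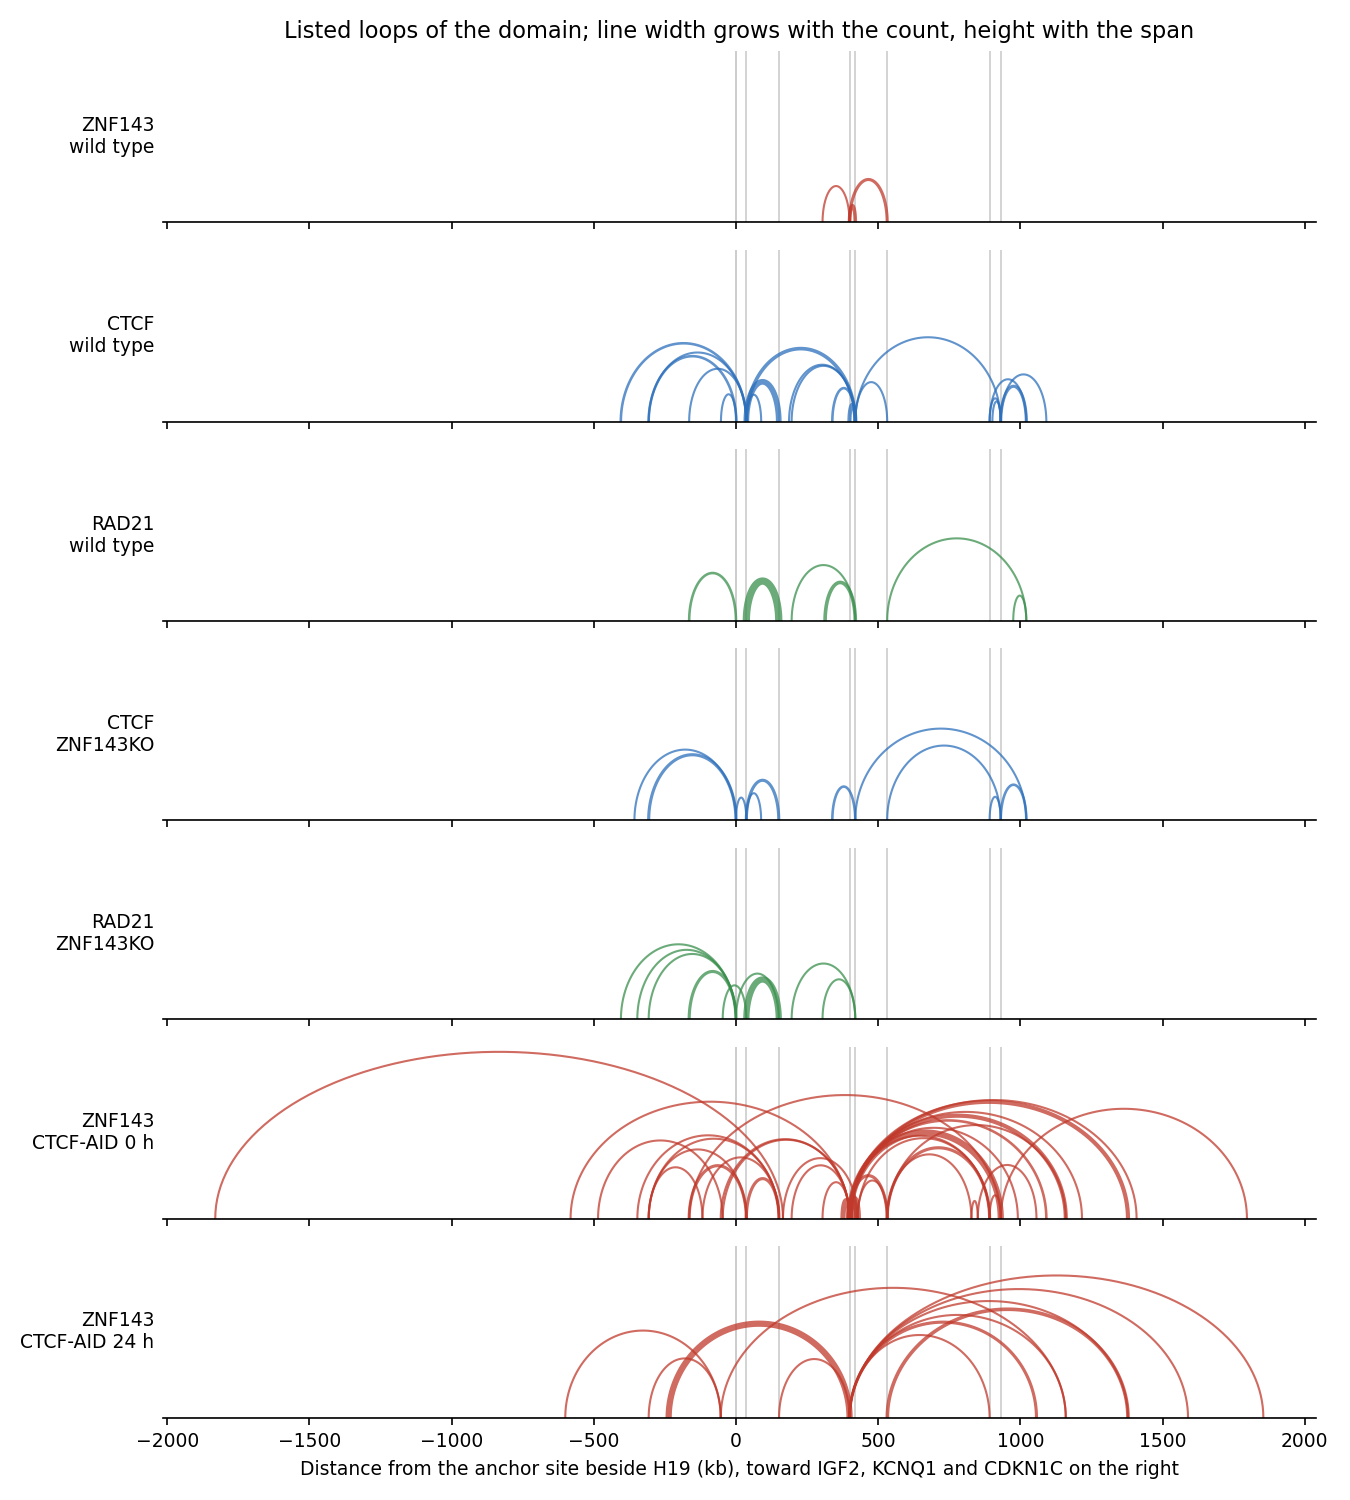
Every listed loop of the domain in the 7 lists, drawn as an arc between its anchor midpoints. The x axis gives the distance in kb from the 2.02 Mb site beside H19, grey lines mark that site and the 7 other busiest sites inside the domain (36 to 931 kb away), line width grows with the count and height with the span. CTCF and RAD21 arcs (blue, green) gather at 0 to 150 kb and at 420 kb, CTCF arcs also at 931 kb, and ZNF143 arcs (red) fan out from 399 kb.

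Among the 18 genes listed for the domain, 5 had a promoter in RefSeq's table (build GRCh38.p14), and IGF2, KCNQ1 and CDKN1C were among those without one. The promoters were those of H19, INS and TSSC4 (1 each), SLC22A18 (2, listed there as SLC67A1) and NAP1L4 (4). These 300-base stretches, from 250 bases before to 50 after a gene start, were searched on both strands for the 11-base ZNF143 core motif, whose letters are those of the match at bases 121 to 131 of the TSSC4 promoter shown here, with any base allowed at its positions 7 and 8. Versions of the CTCF core motif were searched as well. TSSC4, which encodes a factor in assembly of the splicing machinery, lies between CD81 and TRPM5 in the order of genes, hence between IGF2 and KCNQ1. Its promoter and that of H19 are shown, TSSC4 because it alone of the 5 held the ZNF143 core and H19 because the 2.02 Mb site lies beside that gene. Capitals mark matches to the ZNF143 core.
TSSC4 (GRCh38.p14, chr11:2400500-2400799, plus strand): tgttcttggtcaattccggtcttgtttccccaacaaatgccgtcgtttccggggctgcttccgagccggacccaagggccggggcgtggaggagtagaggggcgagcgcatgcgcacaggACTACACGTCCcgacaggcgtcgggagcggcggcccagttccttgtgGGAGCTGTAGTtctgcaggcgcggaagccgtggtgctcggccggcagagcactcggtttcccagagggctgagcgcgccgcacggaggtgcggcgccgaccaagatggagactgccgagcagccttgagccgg
H19 (GRCh38.p14, chr11:2001217-2001516, minus strand): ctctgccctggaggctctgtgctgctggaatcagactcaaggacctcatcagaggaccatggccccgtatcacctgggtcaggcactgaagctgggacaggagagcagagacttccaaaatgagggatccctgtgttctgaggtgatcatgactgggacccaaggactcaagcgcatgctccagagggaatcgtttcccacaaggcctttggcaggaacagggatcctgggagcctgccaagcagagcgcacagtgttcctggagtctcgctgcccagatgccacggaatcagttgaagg
The TSSC4 promoter held the ZNF143 core on the plus strand and, at bases 168 to 178, on the minus strand, 120 and 73 bases before the gene start. Of all 35116 promoters in the table, 1.89% held the ZNF143 core at least once and 0.239% held 2 or more matches. The H19 promoter held no match to either factor's core. Of the 5 genes, SLC22A18 alone had a CTCF core match, to a version that 3.36% of all promoters held. The promoters are from another build than the anchors, so it was not determined whether the 2.42 Mb site covers the start of TSSC4.

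Across the IGF2 position, 1 loop had the most support in the CTCF and RAD21 lists, and it was also in 1 of the 3 ZNF143 lists. This loop joined the 2.06 Mb and 2.17 Mb sites over 114 kb. Its CTCF count was 9 in wild-type and 4 in ZNF143KO cells, its RAD21 count 12 in wild-type and 10 in ZNF143KO cells, and its ZNF143 count 4 in CTCF-AID cells at 0 h. It was not listed for ZNF143 in wild-type cells or in CTCF-AID cells at 24 h. It was the best supported member in all 4 CTCF and RAD21 lists (in ZNF143KO CTCF equal in count to another loop), and the only distinct loop of the domain found with all 3 antibodies. Within its lists, 8.05% of wild-type CTCF loops and 5.33% of wild-type RAD21 loops had as high a count, as did 18.9% and 2.26% of the ZNF143KO lists and 26.1% of the 0 h list. Both counts were thus lower without ZNF143, the RAD21 count by less. The total counts of the lists were also lower without ZNF143, at 46220 against 80726 for CTCF and 33460 against 74410 for RAD21.

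The 2.02 Mb site beside H19 was an anchor of 11 loops, all of them in CTCF or RAD21 lists, and of 0 of the 52 ZNF143 loops, 49 of which came from CTCF-AID cells. In wild-type cells it was an anchor of 0 of 3 ZNF143 loops, which allows up to 56.2%. It had 2 CTCF loops in wild-type and 3 in ZNF143KO cells, and 1 RAD21 loop in wild-type and 5 in ZNF143KO cells. These made up 16.7% of wild-type RAD21 loops of the domain (3.01 to 56.4) and 55.6% of those in ZNF143KO cells (26.7 to 81.1), and the intervals overlap. In the ZNF143KO RAD21 list, 4.26% of anchors had 5 or more loops. Of the 11 loops, 9 ran from the site away from IGF2, to partners at 1.62 to 1.97 Mb. The 2 that ran toward IGF2 were in ZNF143KO lists, each with the minimum count of 2, and joined the site to the 2.06 Mb site (CTCF) and to the 2.17 Mb site (RAD21). The loop to 1.71 Mb had a CTCF count of 3 in wild-type and 4 in ZNF143KO cells and a RAD21 count of 2 in ZNF143KO cells alone. The loop to 1.86 Mb was listed for RAD21 only, at a count of 3 with ZNF143 and 4 without it.

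The 2.06 Mb site had 6 CTCF loops in wild-type and 3 in ZNF143KO cells. Its loops to 1.71 Mb and 1.86 Mb each had a CTCF count of 2 in wild-type cells and ZNF143 counts of 2 and 4 at 0 h, and were in no other list. The missing ones included the loop to the 2.44 Mb site (CTCF count 5), the loop with the highest count in the CTCF and RAD21 lists among those that crossed 2.3 Mb. A minority of the members of each list crossed the point at 2.3 Mb between IGF2 and KCNQ1. Crossing was counted at this point alone and without a background share, so whether it was rare there was not tested. Such loops numbered 3 of 19 for wild-type CTCF, 1 of 6 for wild-type RAD21, 0 of 10 and 1 of 9 in ZNF143KO cells, 0 of 3 for wild-type ZNF143, 6 of 37 at 0 h and 3 of 12 at 24 h. With 0 of 10 the Wilson interval reaches 27.7%, which overlaps the interval of the wild-type CTCF list (5.52 to 37.6%).

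Between IGF2 and KCNQ1, 2 sites whose middles lay 20.0 kb apart differed in which lists used them most. The 2.42 Mb site was an anchor of 28 of the 52 ZNF143 loops of the domain and of 1 of the 44 CTCF and RAD21 loops. It was at 1 end of 3 of 3 wild-type ZNF143 loops (Wilson interval from 43.8%), 17 of 37 at 0 h (45.9%, 31.0 to 61.6) and 8 of 12 at 24 h (66.7%, 39.1 to 86.2). In wild-type CTCF it had 1 of 19 loops (5.26%, 0.935 to 24.6), and in wild-type RAD21 0 of 6 (up to 39.0%). Most of the ZNF143 loops came from CTCF-AID cells, in which CTCF and RAD21 were not profiled. Antibody and cell line therefore cannot be told apart in the pooled numbers. The 2.44 Mb site had 9 CTCF loops, 4 RAD21 loops and 2 ZNF143 loops. Its shares in wild-type cells were alike, with 7 of 19 CTCF loops (36.8%, 19.1 to 59.0), 2 of 6 RAD21 loops (33.3%, 9.68 to 70.0) and 1 of 3 ZNF143 loops (33.3%, 6.15 to 79.2). Only in CTCF-AID cells was the ZNF143 share low, with 1 of 37 at 0 h (2.70%, 0.479 to 13.8) and 0 of 12 at 24 h (up to 24.25%). In the 0 h list 2.33% of anchors had 17 or more loops, at 24 h 14.3% had 8 or more, and in wild-type ZNF143 23.2% had 3 or more. In the wild-type CTCF list 5.00% had 7 or more.

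The 2 sites were joined to each other by a loop. Its ZNF143 count was 5 in wild-type cells and 9 at 0 h, its CTCF count was 6 in wild-type cells, and it was not listed for RAD21, for CTCF in ZNF143KO cells or for ZNF143 at 24 h. The other wild-type ZNF143 loops joined the 2.42 Mb site to 2.55 Mb (count 4, and 4 again at 0 h) and to 2.33 Mb (count 2, and 2 again at 0 h). All 3 wild-type ZNF143 loops were found in CTCF-AID cells at 0 h and none of them at 24 h. Over the whole wild-type ZNF143 list 41.2% were found at 24 h, which lies inside the Wilson interval of 0 of 3 (up to 56.2%).

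**Figure D2:**
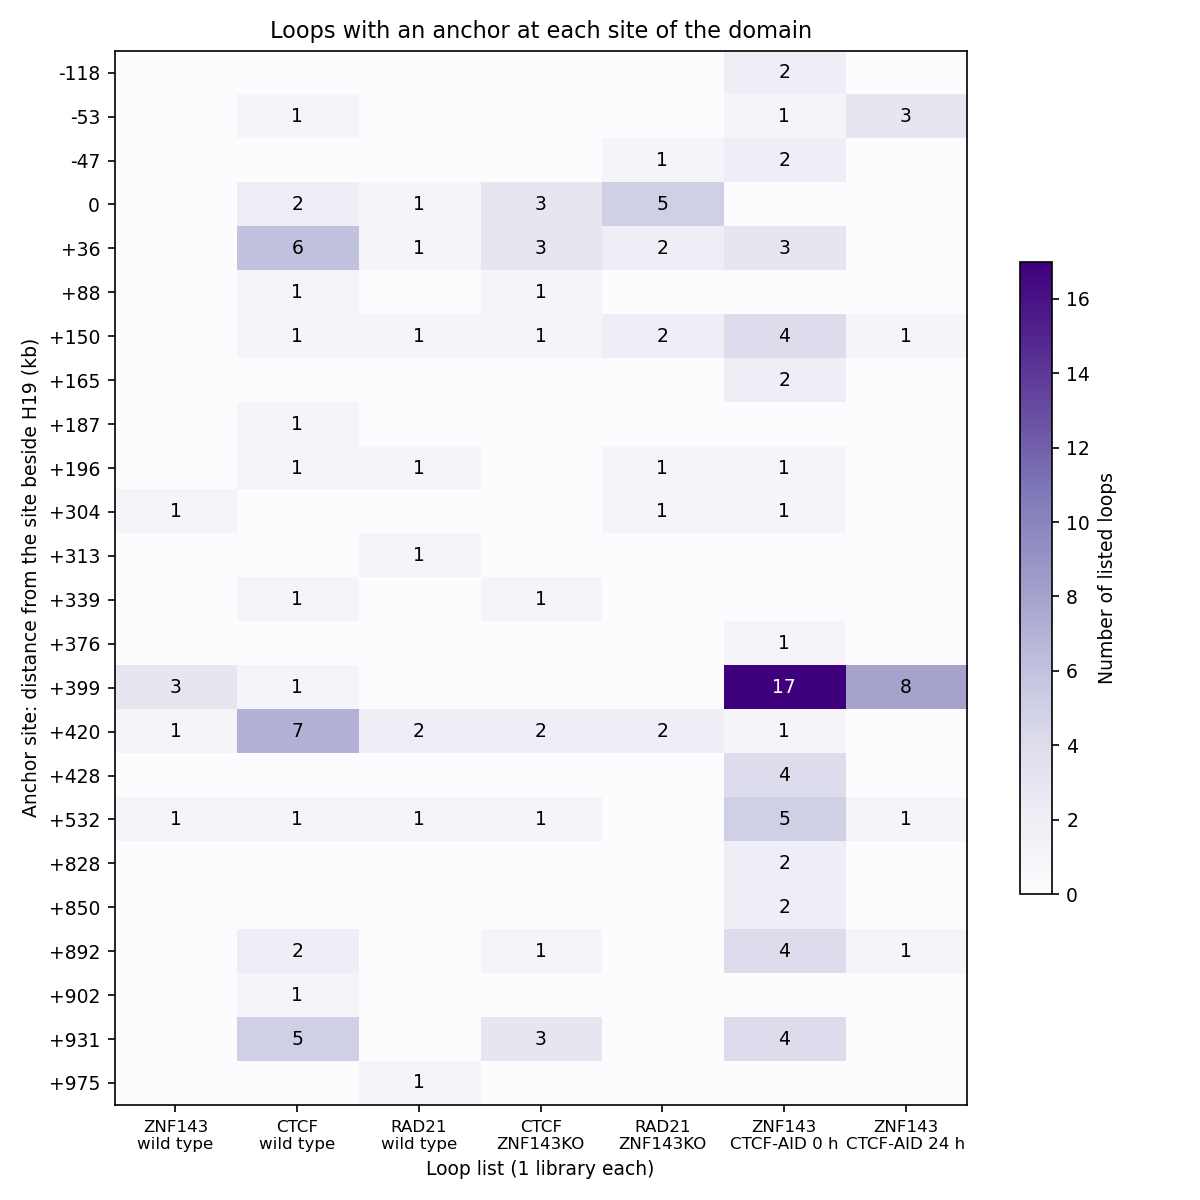
Number of listed loops with an anchor at each of the 24 sites inside the domain (rows, by distance in kb from the 2.02 Mb site) in each list (columns, 1 library each). The row at 399 kb (2.42 Mb) holds 3, 17 and 8 ZNF143 loops and 1 CTCF loop, and the row at 0 (2.02 Mb) holds CTCF and RAD21 loops only.

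The stretch from 2.5 to 2.9 Mb, which by background knowledge holds most of KCNQ1, had few anchors. In the CTCF and RAD21 lists its only site was the one at 2.55 Mb, with 3 loops of count 2. ZNF143 loops at 0 h used it more, with 5 loops at 2.55 Mb and 2 each at 2.85 Mb and 2.87 Mb. Of these, the loop from 2.55 Mb to 2.91 Mb, beside CDKN1C, had a count of 4 and was in no other list. The 2.91 Mb site itself had 2 CTCF loops in wild-type cells and 1 in ZNF143KO cells, 4 ZNF143 loops at 0 h, 1 at 24 h and 0 RAD21 loops. Beyond CDKN1C the genes SLC22A18, which encodes a membrane transporter, PHLDA2, which restrains placental growth, and NAP1L4, which encodes a histone chaperone, follow in map order. The 2.95 Mb site had 5 CTCF loops in wild-type and 3 in ZNF143KO cells, 4 ZNF143 loops at 0 h and 0 RAD21 loops in either genotype. Its loop to 3.04 Mb had CTCF counts of 4 in wild-type and 3 in ZNF143KO cells. Its loop to the 2.91 Mb site had a count of 2 in both CTCF lists and at 0 h.

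In wild-type cells the 3 antibodies listed mostly different loops in this domain. To count as found in a second list, a loop needed each anchor, widened by 5 kb, to overlap the matching anchor of a loop there. Of the 19 CTCF loops, 2 were found in the RAD21 list (10.5%, 2.94 to 31.4), where the share over the whole list was 46.4%. The difference from all other CTCF loops was -35.9 points (Newcombe interval -43.6 to -15.1). The RAD21 list held 6 loops here against 19 for CTCF, which by itself limited how many CTCF loops could be found. How much of the difference this made was not tested, and loops with a common anchor are not independent. The difference was -51.4 points (-63.2 to -14.4) among loops with a count of 3 or more. Among those with a count of 2 it was -19.0 points (-25.9 to 8.03), an interval that includes 0. In the other direction 2 of 6 RAD21 loops were found for CTCF (33.3%, 9.68 to 70.0), against 52.2% over the list, which did not differ beyond counting error (-18.8 points, -42.5 to 17.8). The 2 shared loops were the 114 kb loop near IGF2 and a loop from 2.22 to 2.44 Mb with counts of 2. Of the 3 ZNF143 loops, 1 was found for CTCF, where 19% over the list were, and 0 for RAD21, where 16.3% were. In ZNF143KO cells 2 of 10 CTCF loops were found for RAD21, against 30% over the list, and 2 of 9 RAD21 loops for CTCF, against 41.3%. Of those 3 ZNF143 loops, 0 were found in both other wild-type lists, where 12.6% over the list were, a share that 0 of 3 does not exclude.

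**Figure D3:**
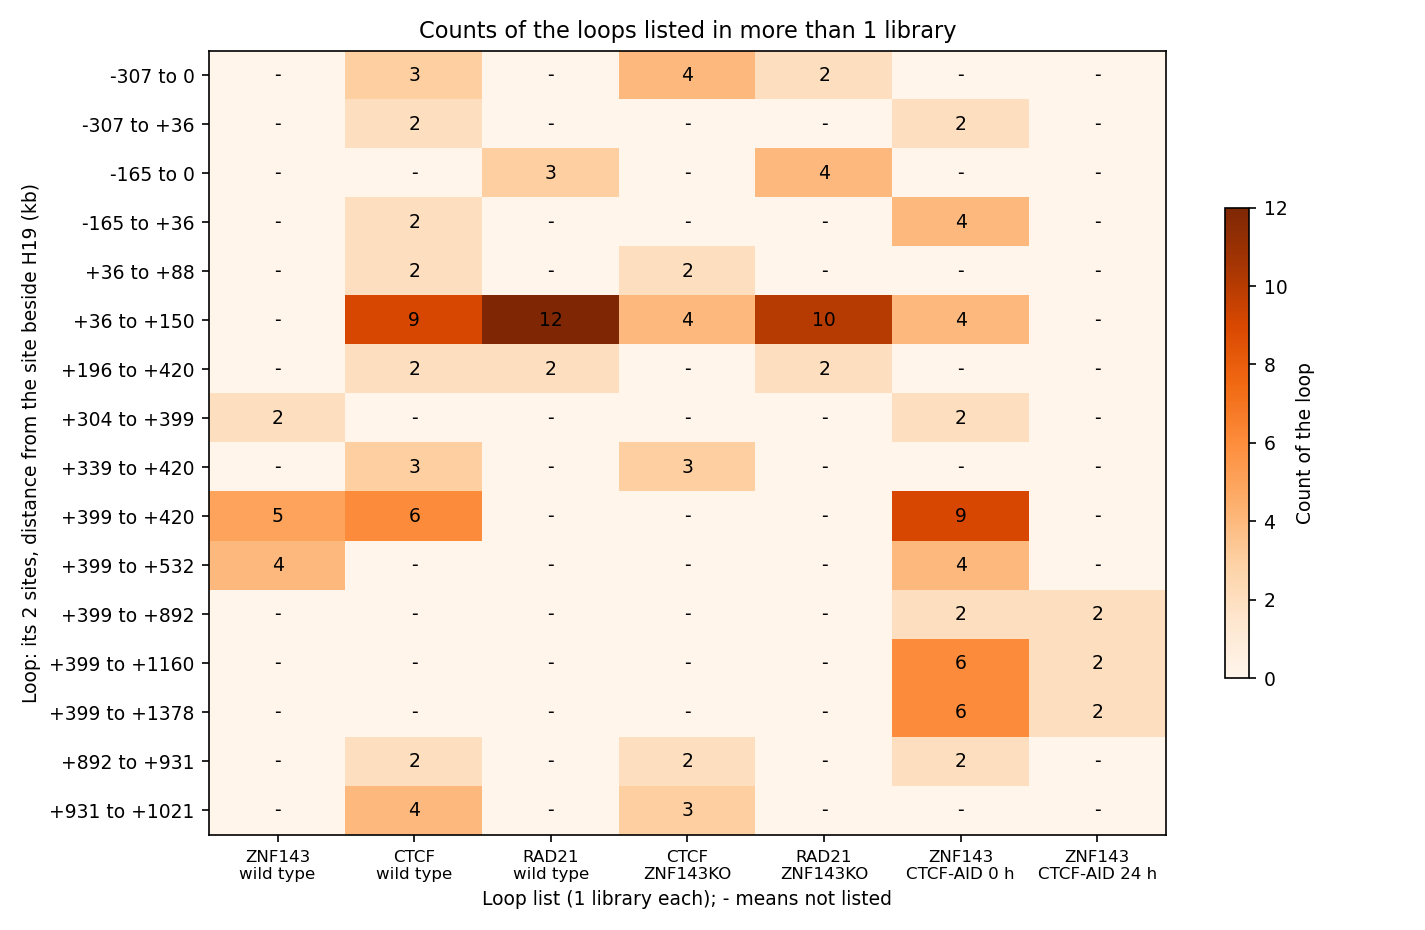
Counts of the 16 distinct loops listed in more than 1 library, each named by the distance in kb of its sites from the 2.02 Mb site, in the 7 lists (a dash means not listed). The loop from 36 to 150 kb is in 5 lists with counts of 4 to 12, and 12 of the other loops never exceed a count of 4.

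CTCF loops of the domain numbered 19 with ZNF143 and 10 without it, and RAD21 loops 6 and 9, differences that counting error could cover. The CTCF ratio of ZNF143KO to wild-type cells was 0.526 (95% exact interval of the split 0.219 to 1.19), against 0.808 (0.791 to 0.825) for all other CTCF loops. The RAD21 ratio was 1.50 (0.477 to 5.12), against 0.643 (0.628 to 0.659) for all other RAD21 loops. Divided by the ratio of the rest, these came to 0.652 (0.303 to 1.40) and 2.33 (0.830 to 6.55), so neither differed from the rest beyond counting error. At a minimum count of 3 the RAD21 ratio fell below 1, to 0.667, with 3 and 2 loops. The lists from ZNF143KO cells also came in another column layout than those from wild-type cells with the same antibodies, and the layout and the genotype cannot be told apart.

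Of the 19 wild-type CTCF loops, 13 (68.4%) were not found in ZNF143KO cells, where 60.9% over the whole list were not. Of the 10 CTCF loops in ZNF143KO cells, 4 were not found in wild-type cells, against 52.9% over that list. For RAD21, 3 of 6 were lost, against 65.9%, and 6 of 9 were gained, against 49.1%. The share found again differed from that of all other loops by -7.51 points for CTCF (-23.7 to 14.9) and 15.9 for RAD21 (-15.4 to 47.1). For the share gained the differences were -12.9 points (-36.1 to 15.9) and 17.5 points (-13.7 to 38.8). All of these intervals include 0 and are wide. The 3 best supported CTCF losses were the loop from 2.42 to 2.44 Mb (count 6), the loop from 2.06 to 2.44 Mb (count 5) and one from 1.62 to 2.06 Mb (count 3). Those kept were the 114 kb loop, the loops from 2.95 to 3.04 Mb, 2.36 to 2.44 Mb (count 3 in both), 1.71 to 2.02 Mb, 2.91 to 2.95 Mb and 2.06 to 2.11 Mb (count 2 in both). The 4 gained CTCF loops and the 6 gained RAD21 loops all had a count of 2. The shortest gained CTCF loops joined 2.02 to 2.06 Mb, 1.66 to 2.02 Mb and 2.55 to 2.95 Mb, and the shortest gained RAD21 loops 1.98 to 2.06 Mb, 2.33 to 2.44 Mb and 2.02 to 2.17 Mb. Lost from RAD21 were loops that joined 2.34 to 2.44 Mb (count 5), and 3.00 and 2.55 Mb to 3.04 Mb (count 2 each).

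**Figure D4:**
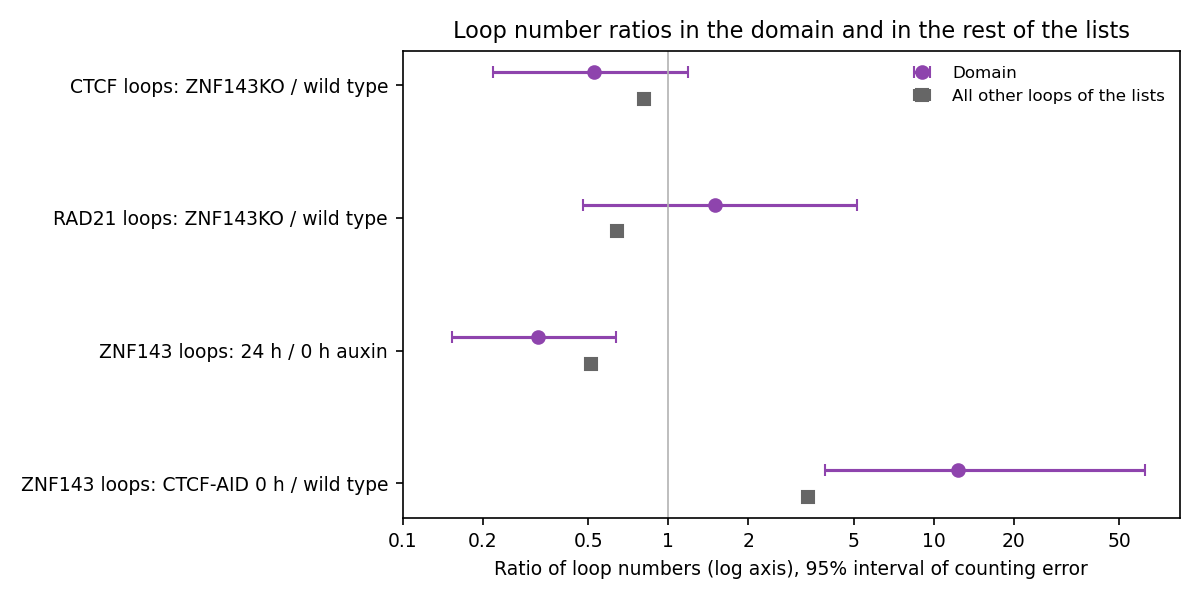
Ratio of loop numbers (log axis) in the domain (purple circles) and among all other loops of the same lists (grey squares) for 4 pairs of libraries, with 95% intervals that cover counting error only. For both pairs from ZNF143KO cells the domain interval includes the value of the rest, 0.808 and 0.643.

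After 24 h of auxin, 8 of the 12 ZNF143 loops of the domain ran from the 2.42 Mb site, most of them to distant partners. The loops numbered 37 at 0 h and 12 at 24 h, a ratio of 0.324 (0.154 to 0.636), against 0.510 (0.501 to 0.518) for all other ZNF143 loops. Relative to the rest the ratio was 0.636 (0.332 to 1.22), which includes 1. For spans of at most 500 kb it was 0.262 (0.0790 to 0.867), and for members with both anchors inside the interval, 19 at 0 h and 2 at 24 h, it was 0.207 (0.0481 to 0.887) against an unfiltered rest. Both of these intervals exclude 1, so the call depends on which loops are counted. Of the 37 loops at 0 h, 34 were not found at 24 h (91.9%), where 75.3% over the list were not. The share found, 8.11%, was 16.6 points below that of all other loops (-21.9 to -3.38). Split by count, the intervals of this difference included 0, at -11.8 points (-15.0 to 3.25) for a count of 2 and -26.6 points (-39.7 to 2.92) for 3 or more. At 24 h, 9 of 12 loops were not found at 0 h, against 54.6% over the list.

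The 3 loops present at both times all started at the 2.42 Mb site. They reached the 2.91 Mb site beside CDKN1C (count 2 at both times), 3.18 Mb (6 and 2) and 3.40 Mb (6 and 2). The lost loops with the highest counts started there as well and reached 2.45 Mb (count 11), 2.95 Mb (10) and 2.44 Mb (9), as did the loop from 2.40 Mb (8). Gained loops joined the same site to 1.79 Mb (count 10) and 3.08 Mb (4), and 2.55 Mb to 3.40 Mb (5). The site had 6 partners at lower and 11 at higher positions at 0 h, and 2 and 6 at 24 h. The 2.06 Mb site had 3 ZNF143 loops at 0 h and none at 24 h, and the 2.95 Mb site 4 and none. The 2.17 Mb site beside IGF2 had 4 at 0 h, all toward lower positions, and 1 at 24 h, to the 2.42 Mb site. Even counts made up 89.5% and 86.9% of all loops in the CTCF-AID lists and 68.1% to 74.6% in the other 5, and whether counts share a scale across lists was not tested. Among the members even counts were the majority in every list.

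The 24 h loops were long. The median span of the members was 438 kb at 0 h and 709 kb at 24 h, against 236 and 300 kb over the whole lists. Spans over 500 kb made up 12 of 37 loops at 0 h (32.4%), where the rest of the list had 27.1%, and 9 of 12 at 24 h (75.0%), where the rest had 34.4%. The difference from the rest was 40.6 points (12.3 to 56.7) at 24 h and 5.32 points (-7.48 to 21.4) at 0 h. A loop was a member with 1 anchor inside the interval, as 10 of 12 were at 24 h and 18 of 37 at 0 h, which favours long loops over the rest of a list, and the part of this in the difference was not tested. Members of at most 500 kb numbered 25 at 0 h and 3 at 24 h, and those over 500 kb 12 and 9. In the CTCF and RAD21 lists, 2 of the 44 members spanned over 500 kb. The rest of those lists had 11.37% and 11.85% in wild-type and 7.53% and 8.56% in ZNF143KO cells. The medians of the members were 129 and 139 kb in wild-type and 102 and 165 kb in ZNF143KO cells.

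**Figure D5:**
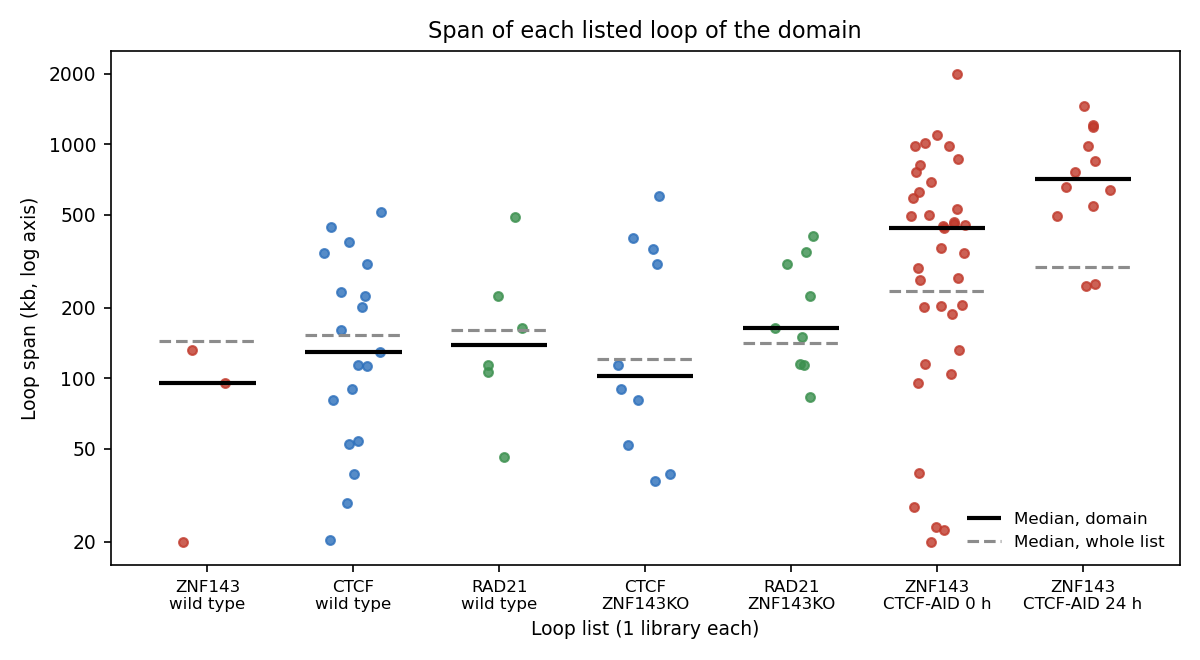
Span in kb (log axis) of each listed loop of the domain, by list, with the median of the members (black) and of the whole list (dashed grey). At 24 h the member median, 709 kb, lies above the list median of 300 kb, and in the CTCF and RAD21 lists both medians lie between 102 and 165 kb.

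Wild-type cells and CTCF-AID cells before auxin, profiled with the same antibody, gave the largest ratio of loop numbers among the 4 pairs of libraries compared. The ZNF143 loop number was 12.3 times as high at 0 h as in wild-type cells (3.90 to 62.5), with 37 and 3 loops, against 3.37 times (3.30 to 3.44) for all other loops. Relative to the rest this was 3.66 (1.13 to 11.9), and with a minimum count of 3 it was 2.54 (0.564 to 11.5). It was 1.88 (0.556 to 6.35) with both anchors of the members in the interval, against an unfiltered rest, and 3.00 (0.907 to 9.95) for spans of at most 500 kb, and these 3 intervals include 1. Of the 37 loops at 0 h, 34 were not found in wild-type cells, where 80.6% over the list were not, led by those from the 2.42 Mb site to 2.45 Mb, 2.95 Mb and 2.40 Mb (counts 11, 10 and 8), and 0 of the 3 wild-type loops were missing at 0 h, where 40.4% were. The 2.42 Mb site had 3 and 17 loops in these libraries, which differ in cell line, list layout and share of even counts at once.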

How the data were processed

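The authors deposited 1 loop list per library, without headers, each line holding 2 anchors and a whole-number count, which was used as deposited. HiC-Pro and the build hg19 are named in the submitters' processing notes. The loop caller, filters and any pooling are not given in the sources used here. Loops with a count under 2 are not listed, so a missing loop is not shown to be absent. Anchor starts were taken to count from 0 and 1 was added. Wild-type ZNF143 and ZNF143KO lists have 7 columns and the others 8.

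Groups came from sample titles. Members, lists and comparisons were chosen with earlier results of these data known. Text names the 3 best supported members per list, the 3 best supported lost and gained members per pair, ties going to the shorter span, the members found in several lists, and the 8 busiest sites inside the domain together with those beside H19, IGF2 and CDKN1C. Intervals (95%) are Wilson for shares, Newcombe for differences, exact binomial for ratios and log-scale for ratios relative to all other loops. They cover counting error only, and loops with a common anchor are not independent of each other. The planned motif search at anchors was not run, because no hg19 sequence was used. Matching and intervals were tested on simulated loops. Python 3.11.15, pandas 2.3.3, scipy 1.17.1 and matplotlib 3.10.9 were used.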

Additional observations from a re-analysis of the deposited data

Results flagged for a closer look

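After deletion of ZNF143 the CTCF and RAD21 loops of the domain moved in opposite directions in number, from 19 to 10 and from 6 to 9. The RAD21 ratio was 2.85 times the CTCF ratio (95% interval of counting error 0.788 to 10.3), and 3.58 times (0.989 to 12.9) when each was first divided by the ratio of all other loops, so both intervals include 1. At a minimum count of 3 both numbers were lower without ZNF143 (ratios 0.571 for CTCF and 0.667 for RAD21), so the opposite directions rest on loops with a count of 2. With 1 library per group the difference was not tested across replicates.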

How the results depend on the processing

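The alternatives with spans of at most 500 kb, with loops of count 2 only and with halved CTCF-AID counts, and all 3 for the share of CTCF loops found for RAD21, were chosen after seeing the data, and the others were planned. Over 20 results and 78 alternatives, 70 values kept to the counting interval (95%) of the one given in the text, 7 left it and 1 changed direction, where the cause was not tested unless given. With a minimum count of 3, the RAD21 loop number ratio after ZNF143 deletion turned to 0.667, the share of CTCF loops found again rose to 57.1%, and the share of 0 h ZNF143 loops found at 24 h was 0% of 11 loops; fewer loops remain there by construction. With both anchors in the interval the ratio of 24 h to 0 h was 0.105, or 0.207 relative to an unfiltered rest (0.0481 to 0.887), and with spans of at most 500 kb, for members and rest alike, it was 0.120 or 0.262 (0.0790 to 0.867). Both relative intervals exclude 1, unlike the one for all members. Halving the CTCF-AID counts, which keeps loops of at least 4, took the ratio of 0 h to wild-type ZNF143 loops to 3.33, or 3.80 relative to the rest (1.04 to 13.8). No paired analysis was possible because each group held 1 library.

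Loops under 2 counts are unlisted and library depth is unknown, so most members sit at the detection limit.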
